A study of Mus musculus with 6 samples.

Results

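The keratin-associated protein genes (symbols starting with Krtap) were examined in whole biopsies of mouse wound scars measured on Affymetrix exon arrays. Rows of the value table that name exactly 1 gene symbol were searched for these symbols, which gave 46 rows for 37 genes of 20255 genes in all. For the 6 genes with more than 1 row, the row of highest mean level was kept. The 37 genes belong to 21 numbered subfamilies, and 36 of them passed a filter that left out the 25% of genes with the lowest mean level, a cut at 5.596 log2 units that kept 15191 genes.

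The series set mice whose healed wounds held many regenerated hair follicles, called high regeneration here, against mice whose wounds held none, called low regeneration. There were 6 biopsies, 3 per group, and each group had 1 biopsy on day 4, 1 on day 6 and 1 on day 9 after wound closure. No treatment is named in the labels, and the sources used here do not give the strain, genotype, age or sex of the mice. Each high biopsy has a low biopsy of the same day as its pair, so the pairs are the replicates of the comparison between groups, and a single day has no replicate. Because a biopsy holds all cell types of the scar, fewer cells of a type and less RNA per cell cannot be told apart.

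Keratin-associated proteins form the matrix in which the keratin filaments of the hair shaft are embedded, and they are cross-linked to those keratins through disulfide bonds. They are made late in hair shaft differentiation, in the cortex and cuticle above the hair bulb, and are a mark of cells that are building a hair. They are sorted by composition into high sulfur proteins, ultrahigh sulfur proteins, which are richest in cysteine, and high glycine-tyrosine proteins. By subfamily number, 11 of the 37 genes were placed in the high sulfur class, 12 in the ultrahigh sulfur class and 12 in the high glycine-tyrosine class. Krtap28-13 and Krtap31-1 were not assigned to a class. In the mouse assembly GRCm38.p6, 18 of the genes lie on chromosome 16, 11 on chromosome 11, 5 on chromosome 7, 2 on chromosome 10 and 1 on chromosome 1.

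The stretch just before the transcription start is shown for 6 genes to display what many promoters of the family have in common: a TATA box, the element that positions the start of transcription, close to the start. Each line gives the 100 bases before the RefSeq start in GRCm38.p6, on the minus strand, 5′ to 3′, with matches to TATAAA on either strand in capitals. Krtap1-5 and Krtap3-1 are high sulfur genes, at chr11:99581017-99581116 and chr11:99566631-99566730. Krtap9-3 and Krtap4-1 are ultrahigh sulfur genes, at chr11:99598107-99598206 and chr11:99628240-99628339. Krtap19-5 and Krtap19-2 are high glycine-tyrosine genes, at chr16:88896450-88896549 and chr16:88874270-88874369.
Krtap1-5: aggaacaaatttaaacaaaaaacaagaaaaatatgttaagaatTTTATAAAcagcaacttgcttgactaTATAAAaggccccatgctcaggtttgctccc
Krtap3-1: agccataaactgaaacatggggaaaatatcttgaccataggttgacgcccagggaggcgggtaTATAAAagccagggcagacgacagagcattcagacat
Krtap9-3: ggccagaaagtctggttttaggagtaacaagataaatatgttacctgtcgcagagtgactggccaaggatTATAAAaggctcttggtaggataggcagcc
Krtap4-1: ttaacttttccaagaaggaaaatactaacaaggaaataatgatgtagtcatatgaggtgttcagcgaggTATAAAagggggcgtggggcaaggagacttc
Krtap19-5: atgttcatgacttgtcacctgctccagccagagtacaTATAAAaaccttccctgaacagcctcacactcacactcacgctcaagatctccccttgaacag
Krtap19-2: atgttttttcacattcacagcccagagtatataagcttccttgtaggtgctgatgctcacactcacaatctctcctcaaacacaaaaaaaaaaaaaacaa

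RefSeq promoter windows of 300 bases, from 250 before to 50 after the start, were at hand for 33 of the 37 genes. TATAAA, searched on both strands, was found in 27 of these 33 windows (81.8%), against 13.6% of all 32851 promoter windows. On the gene strand, with its first base between positions -40 and -20, it was found in 21 windows (63.6%), against 1.99% of all windows. Those 21 matches began between 37 and 27 bases before the start, 9 of them at position -31, with the first transcribed base counted as 0 and bases before it as negative. This placement was found in 81.8% of the ultrahigh sulfur windows, 66.7% of the high sulfur windows and 36.4% of the high glycine-tyrosine windows. In Krtap19-5 the match began at position -63, and in Krtap19-2 there was none.

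3 further motifs were searched on both strands. CTTTGAAG, the HK-1 motif described in wool keratin promoters, was in 12.1% of the family's windows, against 1.66% of all windows; the genes were Krtap11-1, Krtap14, Krtap24-1 and Krtap19-3. TCGTAAA and CAATAAA, a pair of core sequences bound by HOX13 proteins, were in 3.03% and 0 of the family's windows, against 0.597% and 4.6% of all windows. A match of TATAAA cannot lie inside a match of any of these. Between genes, windows of the same subfamily were identical at a median of 57.6% of positions (37 pairs), against 52.4% for other pairs (491 pairs). The most alike were Krtap19-1 and Krtap19-2, at 91.2%.

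**Figure D1:**
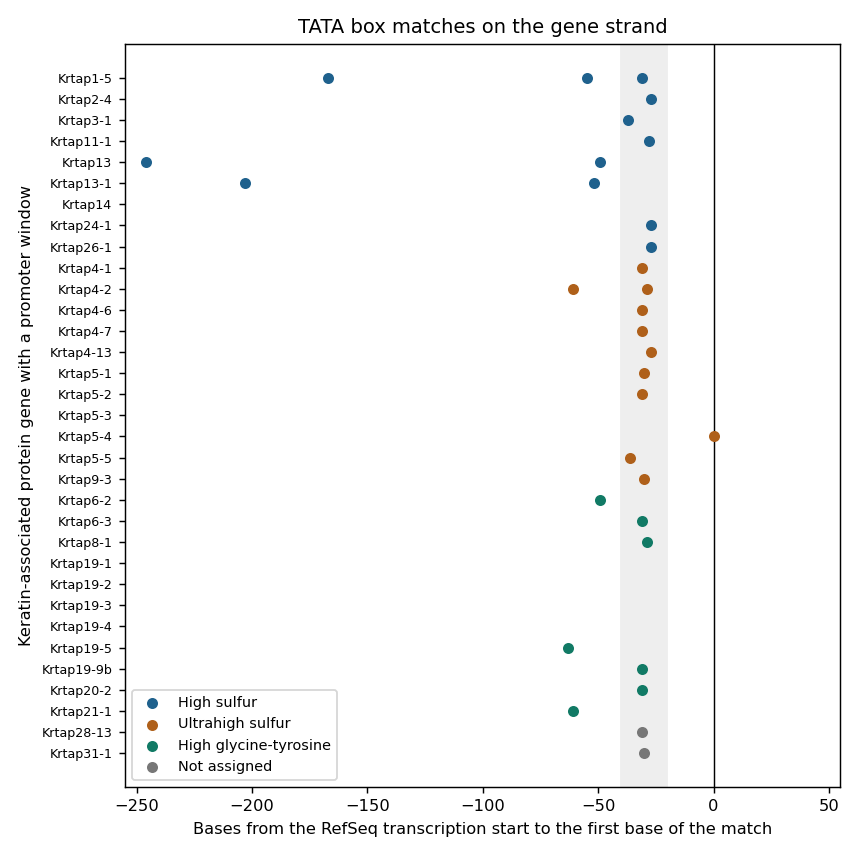
Position of TATAAA matches on the gene strand in 33 promoter windows, 1 row per gene, in bases from the RefSeq transcription start to the first base of the match (x axis); colours mark the protein class and the grey band spans positions -40 to -20. In 21 genes a match begins inside the band, most often at position -31.

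Array medians lay between 6.04 and 6.10 log2 units in the 6 biopsies. In genes outside the family, 2 biopsies stood apart. The high day 4 biopsy had H2-Ea, an MHC class II gene, at 6.59 log2 units against 4.09 to 4.43 in the other biopsies. H2-Ob went the other way there, at 6.16 log2 units against 7.68 to 8.07. The low day 9 biopsy had Xist at 12.77 log2 units, against 7.30 in the low day 6 biopsy and 5.75 to 5.82 in the rest. It had the Y-linked Uty at 3.88, against 7.46 to 8.07 in the others. Kdm5d and Eif2s3y, also Y-linked, were at 4.98 and 4.36 in it, against 7.44 and 7.21 in the high day 9 biopsy. By these genes the low day 9 biopsy read as female and the high day 9 biopsy as male, while the labels give no sex. On day 9, group and this sex difference cannot be told apart. The 2 biopsies that stood apart were also the extremes of the family. The high day 4 biopsy was the highest of the 6 in 35 of 36 genes (24% of all genes tested), and the low day 9 biopsy was the lowest in 30 (20.9%). The part of these differences between animals in the results below was not tested. How results moved without single pairs or biopsies is given below for the family, the classes and the named genes that turned sign.

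On day 4 the keratin-associated protein genes were higher in the high regeneration biopsy, on day 6 they were lower in it, and on day 9 they were again higher. The median high minus low difference over the 36 genes was 2.06 log2 units on day 4, -0.85 on day 6 and 0.83 on day 9. On day 4, 35 of 36 genes were higher in the high biopsy (47.9% of all genes tested), and on day 9, 32 were (49.1%). On day 4, 33 of 36 genes were at least 1 log2 unit higher in the high biopsy, as were 1.03% of all genes tested. On day 6, 16 were at least 1 log2 unit lower in it (0.388% of all genes), and on day 9, 14 were at least 1 log2 unit higher (0.533% of all genes). The sequence higher, lower, higher was followed by 28 of the 36 genes, against 9.03% of all genes.

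With day as a factor, none of the 36 genes passed an adjusted p of 0.05 between high and low biopsies in limma's moderated test; 8 of all 15191 genes did (0.0527%). The lowest adjusted p in the family was 0.449. The family's median difference over the 3 pairs was 0.68 log2 units, beside a standard deviation of 1.46 between the day medians. Only 3 of the 36 had an unadjusted p under 0.05 (10.1% of all genes): Krtap4-13, Krtap5-3 and Krtap28-13, all higher in the high group (4.89% of all genes were called in that direction), and these were also the 3 that were higher in all 3 pairs (15.8% of all genes). For Krtap28-13 this holds for its brighter row, with a day 6 difference of 0.03 log2 units; in its other row that difference was -0.30. Without the day 6 pair, 6 genes of the family had an adjusted p under 0.05, against 35 of all 15191 genes. The family median was then 1.45 log2 units, and leaving out day 4 gave a median of -0.03. The day 6 pair is the one with a negative median difference. Fits without a pair have fewer residual degrees of freedom, so their calls rest on less data than the main fit.

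**Figure D2:**
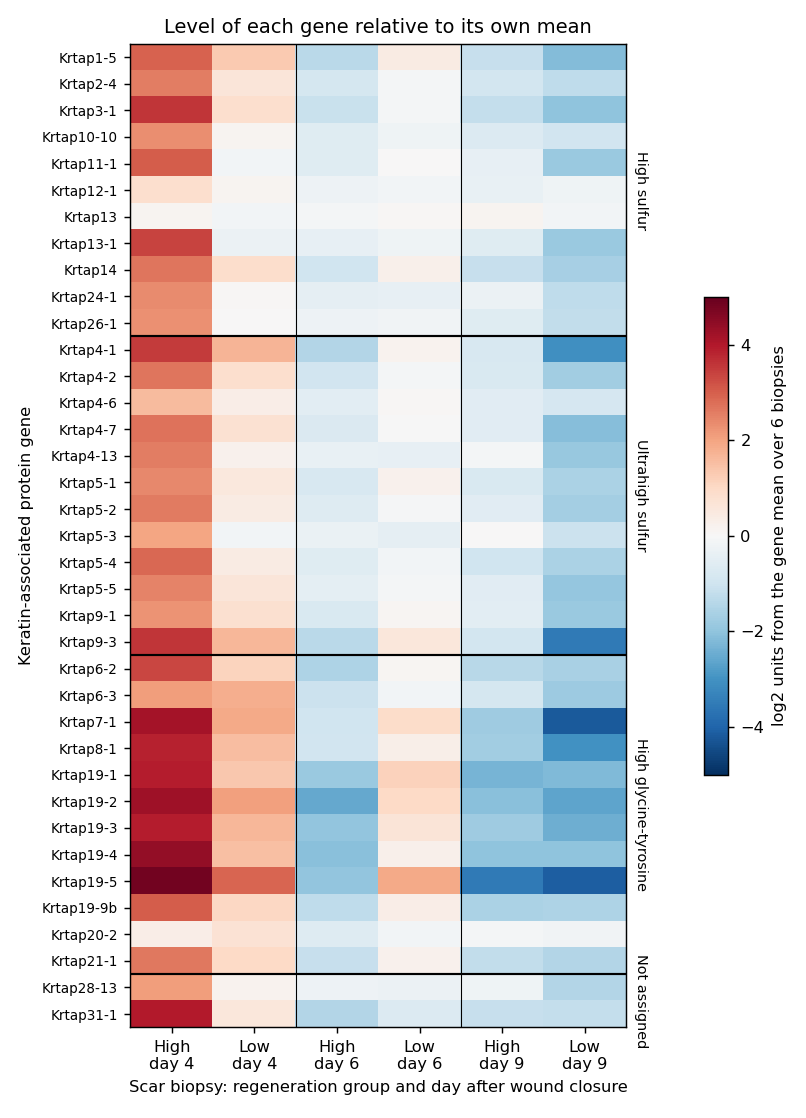
Level of each of the 37 genes in log2 units from its own mean over the 6 biopsies (colour scale), with genes in rows by protein class and biopsies in columns by day. The high day 4 column is the highest in 35 of the 36 genes past the filter, and the low day 9 column is the lowest in 30.

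Among the high sulfur genes, all 10 past the filter were higher in the high biopsy on day 4 and lower in it on day 6, and 9 were higher in it on day 9. The median differences on the 3 days were 2.23, -0.52 and 0.74 log2 units. Krtap1-5, of a subfamily found in the hair cortex, was at 13.37, 9.08 and 9.25 log2 units in the high biopsies, in the order of days 4, 6 and 9 used throughout, against 11.73, 10.81 and 8.23 in the low biopsies. Its high values lay above the low ones on days 4 and 9 and below on day 6, and the groups overlapped. The difference averaged 0.31 ± 1.80 log2 units (SD, n = 3 pairs; adjusted p = 0.907). Krtap3-1, another cortex gene, was at 10.75, 6.07 and 6.01 log2 units in the high biopsies, against 8.02, 7.09 and 5.17 in the low biopsies. Its day 4 high value stood alone at the top, and the other values overlapped.

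The largest mean difference of the family was that of Krtap13-1, at 1.56 ± 1.96 log2 units (SD, n = 3 pairs; 2.95-fold; adjusted p = 0.55). It was at 9.85, 6.05 and 5.88 log2 units in the high biopsies, against 6.18, 6.27 and 4.64 in the low biopsies. Its day 4 difference was 3.66 log2 units. Krtap11-1 was at 10.81, 7.15 and 7.34 log2 units in the high biopsies, against 7.61, 7.79 and 5.91 in the low biopsies. Unlike most members it was slightly higher on day 6 than on day 4 in the low group. Krtap24-1, a cuticle gene in human hair, was at 9.38, 6.57 and 6.72 log2 units in the high biopsies, against 7.08, 6.58 and 5.74 in the low biopsies. Its day 6 values differed by 0.01 log2 units.

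Krtap2-4, Krtap10-10, Krtap14 and Krtap26-1 had mean differences between 0.35 and 0.94 log2 units, with adjusted p values of 0.561 to 0.865. Krtap12-1 differed little between biopsies: it was at 7.49, 6.42 and 6.27 log2 units in the high group, against 6.81, 6.54 and 6.45 in the low group. Its whole range was 1.21 log2 units. Krtap13, with a mean of 3.80 log2 units, was the 1 gene below the filter, and its 6 values lay within 0.29 log2 units. The gene just above the cut was the ultrahigh sulfur gene Krtap4-6, with a mean of 5.62 log2 units.

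All 12 ultrahigh sulfur genes were higher in the high biopsy on days 4 and 9, and 10 were lower in it on day 6. Their median differences on the 3 days were 1.92, -0.65 and 1.23 log2 units. Krtap4-13 was at 10.003, 7.05 and 7.34 log2 units in the high biopsies, against 7.64, 7.03 and 5.52 in the low biopsies. On day 6 the pair was level to 0.02 log2 units, and on the other days the high biopsy was clearly above. The difference averaged 1.40 ± 1.23 log2 units, or 2.64-fold (SD, n = 3 pairs; adjusted p = 0.449). Krtap5-3 was at 9.93, 7.62 and 7.95 log2 units in the high biopsies, against 7.80, 7.499 and 6.89 in the low biopsies. Its difference averaged 1.10 ± 1.01 log2 units (SD, n = 3 pairs; adjusted p = 0.465).

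Krtap9-3 and Krtap4-1 had the most negative day 6 and the largest day 9 differences of the class. Krtap9-3 was at 12.25, 7.31 and 7.74 log2 units in the high biopsies, against 10.32, 9.24 and 5.11 in the low biopsies. Its high minus low difference was 1.94 log2 units on day 4, -1.93 on day 6 and 2.62 on day 9. The low day 9 value of Krtap9-3 lay below the filter cut, so the size of its day 9 difference is uncertain. Krtap4-1 was at 12.67, 7.71 and 8.37 log2 units in the high biopsies, against 10.86, 9.36 and 6.12 in the low biopsies. The groups overlapped in both genes, and their adjusted p values were 0.777 and 0.765. Krtap9-1 was at 12.86, 9.87 and 10.09 log2 units in the high biopsies, against 11.41, 10.70 and 8.74 in the low biopsies, with smaller steps in the same order. Krtap4-7 averaged 0.95 ± 1.45 log2 units higher (SD, n = 3 pairs), and Krtap5-1 averaged 0.56 ± 1.46 higher (SD, n = 3 pairs), with adjusted p values of 0.612 and 0.761.

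The 12 high glycine-tyrosine genes had the widest spread. On day 4, 11 were higher in the high biopsy, on day 6 all 12 were lower in it, 10 of them by at least 1 log2 unit, and on day 9, 9 were higher. The median differences were 2.198, -1.78 and 0.41 log2 units. Krtap19-5 was at 12.38, 5.57 and 4.00 log2 units in the high biopsies, against 10.46, 9.46 and 3.43 in the low biopsies. Between days 4 and 6 it differed by -0.996 log2 units in the low group and by -6.82 in the high group. Its high day 6, high day 9 and low day 9 values lay below the filter cut, so the sizes of steps to them are uncertain; the day 6 difference between groups read -3.90 log2 units.

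Krtap19-2 was at 12.06, 5.27 and 5.72 log2 units in the high biopsies, against 9.87, 8.82 and 5.17 in the low biopsies. Krtap19-1, whose promoter window is the one most like it, was at 10.46, 4.71 and 4.21 log2 units in the high biopsies, against 7.90, 7.68 and 4.33 in the low biopsies. Both were higher in the high biopsy on day 4 and lower in it on day 6, and their mean differences were -0.27 ± 2.96 and -0.18 ± 2.77 log2 units (SD, n = 3 pairs; adjusted p = 0.954 and 0.966). With Krtap19-5 and Krtap20-2 they were the 4 genes of the family with a negative mean difference (51.1% of all genes). Whether probes of the Krtap19 genes share signal was not tested.

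Krtap7-1, a cortex gene, was at 13.25, 8.07 and 7.30 log2 units in the high biopsies, against 10.98, 9.99 and 4.86 in the low biopsies. On day 9 it was 2.44 log2 units higher in the high biopsy, the widest day 9 margin of its class. Its low day 9 value lay below the filter cut, so the size of this margin is uncertain. Krtap8-1 was at 11.89, 7.08 and 6.33 log2 units in the high biopsies, against 9.60, 8.36 and 5.02 in the low biopsies. The mean differences of Krtap7-1 and Krtap8-1 were 0.93 ± 2.47 and 0.78 ± 1.84 log2 units (SD, n = 3 pairs; adjusted p = 0.764 and 0.733). Krtap20-2 went against the family on day 4: it was at 6.26, 5.30 and 5.84 log2 units in the high biopsies, against 6.65, 5.78 and 5.76 in the low biopsies. Krtap6-2 and Krtap21-1 had mean differences of 0.27 and 0.17 log2 units.

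Low levels limited what could be read in this class. On day 6, 8 of its 12 genes lay below the 5.596 cut in the high biopsy and none in the low biopsy. On day 9, 6 did in the high biopsy and 11 in the low biopsy. Over the whole family, 11, 9 and 21 of the 36 genes lay below the cut in the high day 6, high day 9 and low day 9 biopsies, and none did in the other 3. In the low day 9 biopsy these included 4 high sulfur and 5 ultrahigh sulfur genes. In every class, the sizes of differences and steps that involve such values are uncertain.

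The 2 genes without a class differed from each other. Krtap28-13 was at 9.79, 7.46 and 7.52 log2 units in the high biopsies, against 7.89, 7.43 and 6.25 in the low biopsies, and its difference averaged 1.07 ± 0.96 (SD, n = 3 pairs; adjusted p = 0.46). Krtap31-1 was at 10.61, 5.19 and 5.51 log2 units in the high biopsies, against 7.22, 5.96 and 5.45 in the low biopsies. It was 3.39 log2 units higher in the high biopsy on day 4 and 0.06 higher on day 9.

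**Figure D3:**
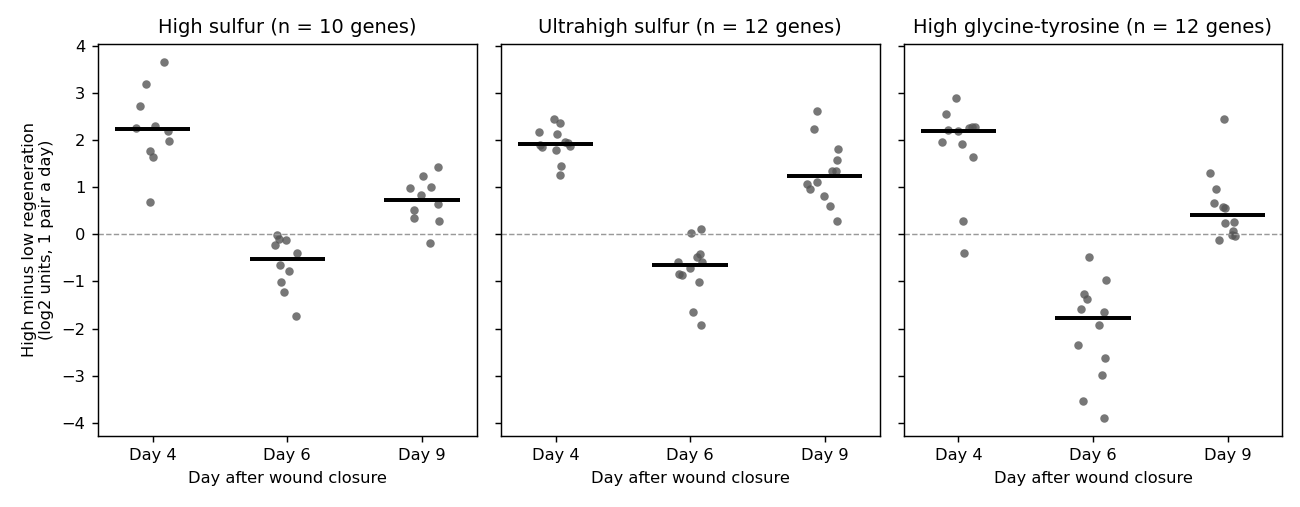
High minus low difference of each gene in log2 units (y axis) on days 4, 6 and 9 (x axis), 1 panel per class, with a point per gene and a bar at the class median. The day 6 median lies below 0 in each class, at -0.52, -0.65 and -1.78 log2 units, and the day 4 and day 9 medians lie above 0.

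Over time, each of the 36 genes, at its brightest row, was lower on day 9 than on day 4 in both groups (34.9% of all genes), and 33 were lower by at least 1 log2 unit in both (0.691% of all genes). The dimmer row of Krtap12-1 was level in the low group, at a day 9 minus day 4 change of 0.007 log2 units. Sebaceous gland genes were lower on day 9 as well: all 6 listed sebocyte markers past the filter were lower in both groups, with median changes of -2.35 log2 units in the high group and -1.62 log2 units in the low group. The family medians were -3.65 and -2.54. The steps came at different days. In the high group the median change between day 4 and day 6 was -3.65 log2 units, with 35 of 36 genes lower by at least 1 log2 unit (1.32% of all genes), and between day 6 and day 9 it was 0.07. In the low group the median change was -0.71 log2 units between days 4 and 6, with 9 genes lower by at least 1 log2 unit (0.217%), and -1.77 between days 6 and 9, with 29 genes (0.79%). Each of these steps rests on 1 biopsy per day.

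The family supplied 18 of the 20 genes with the most negative change between day 4 and day 6 in the high group, although it makes up 0.237% of the genes tested. In the low group it supplied 10 of the 20 with the most negative change between days 6 and 9. The first of the high group's steps was widest in the high glycine-tyrosine class, with a median of -5.02 log2 units, against -3.56 in the high sulfur and -3.23 in the ultrahigh sulfur class. In that class the low group's median was -1.003 between days 4 and 6 and -2.66 between days 6 and 9. These class medians are descriptions, and the differences between classes were not tested.

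A slope per day over all 6 biopsies, with group as a covariate, was negative in all 36 genes (54.8% of all genes). This model treated the 6 biopsies as independent. Day and pair coincide, so it could hold no term for the pairs, and its p-values do not allow for likeness within a pair. No gene of the 36, and none of all 15191 (0%), passed an adjusted p of 0.05 in limma, and the lowest adjusted p in the family was 0.166. An unadjusted p under 0.05 was reached by 35 genes (16.2% of all genes), all with negative slopes (9.24% of all genes were called in that direction); Krtap20-2 was the exception. The median slope was -0.58 log2 units per day over the family, -0.50 in the high sulfur, -0.53 in the ultrahigh sulfur and -0.94 in the high glycine-tyrosine class. Krtap19-5, with 3 of its 6 values below the filter cut, had the steepest fitted slope of all genes tested, at -1.52 ± 0.26 log2 units per day (SE; adjusted p = 0.166), followed by Krtap7-1 at -1.19 ± 0.21 (SE; adjusted p = 0.168). Without the high day 4 biopsy the family median was -0.38 and 32 genes had an unadjusted p under 0.05. Without the low day 9 biopsy the median was -0.62 and 28 genes did. Over all biopsies left out in turn, the count ran from 26, without the high day 9 biopsy, to 36, without the high day 6 biopsy. The share of all genes at that unadjusted p was not counted in these settings. Without the high day 6 biopsy 23 genes of the family had an adjusted p under 0.05, against 130 of all 15191 genes. Other hair genes had such slopes as well. At an unadjusted p under 0.05, slopes were negative for 6 of 10 hair shaft keratins (median -0.31 log2 units per day) and 7 of 8 inner root sheath keratins (median -0.39). So were those of 6 of 8 other listed hair shaft genes (median -0.36). Negative slopes at an unadjusted p under 0.05 were also found for 6 of 6 sebocyte markers (median -0.39 log2 units per day, lowest adjusted p 0.1), 5 of 6 melanocyte markers (median -0.12) and 3 of 5 adipocyte markers (median -0.13). The same was found for 1 of 6 muscle, 1 of 5 basal epidermis, 1 of 6 cornified epidermis and 0 of 6 fibroblast markers. The part of these other cell types in the family's slope was not tested.

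The slopes of the groups were then set against each other in an interaction term. The median slope difference, high minus low, was -0.17 log2 units per day, with 30 of 36 genes negative (50.3% of all genes). No gene of the family passed an adjusted p of 0.05 (0% of all genes), and none had an unadjusted p under 0.05 (3.96% of all genes); the lowest adjusted p was 0.988. The sign of this median depended on single biopsies: without the high day 4 biopsy it was 0.48, and without the high day 9 biopsy it was -1.33. In the latter setting 23 genes of the family had an adjusted p under 0.05, against 83 of all genes.

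**Figure D4:**
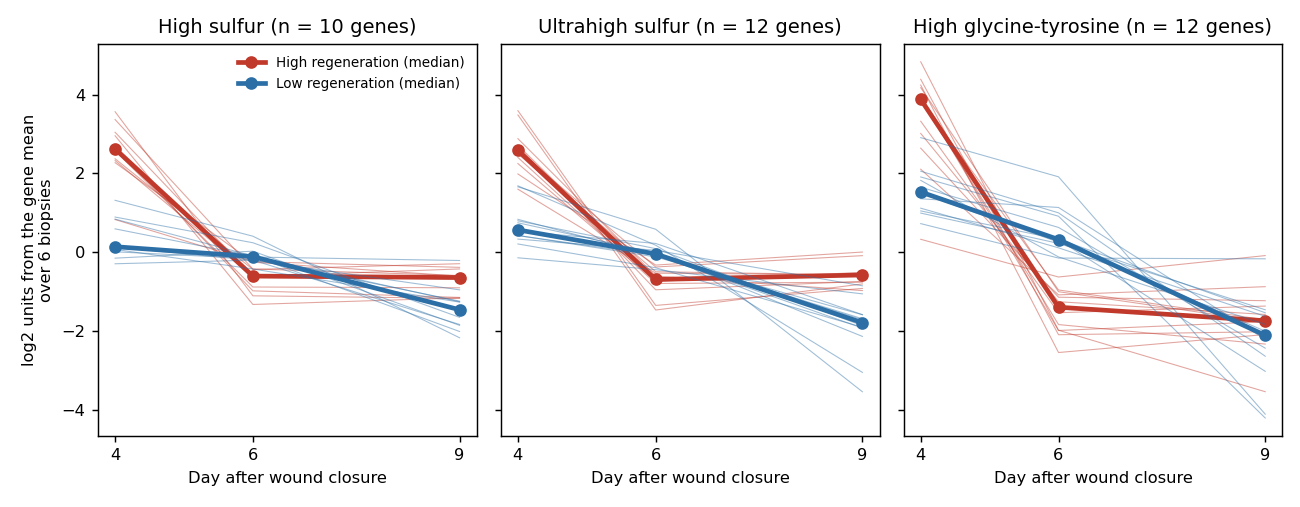
Level of each gene in log2 units from its own mean (y axis) by day after wound closure (x axis), 1 panel per class, with thin lines for genes and thick lines for class medians of the high and low groups. In each class the high median is lower on day 6 than on day 4 and near the same level on day 9, and the wider step of the low median lies between days 6 and 9.

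The members varied together across the 6 biopsies. The correlation between 2 members had a median of 0.95 over 630 pairs, as a description over 6 biopsies in which all genes share the same 6 arrays. Correlation with the family's mean profile was lowest for Krtap20-2, at 0.646, and for Krtap5-3, at 0.886. In 24 of the 36 genes the biopsies fell in the same order from the top: high day 4, low day 4, low day 6, then the high day 6 and high day 9 biopsies in either order, and low day 9 last. The share of all genes with this order was not counted, so how unusual it is cannot be read here. The high day 6 and high day 9 biopsies had family medians of -0.92 and -0.85 log2 units from the gene means. With 1 biopsy per group and day, no neighbours in this order could be tested.

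For genes with several rows, the row kept was the brightest one, and dimmer rows had wider steps in several cases. The 3 rows of Krtap9-1 gave high minus low differences of 1.35, 2.08 and 3.38 log2 units on day 9, from the brightest to the dimmest row. The 4 rows of Krtap2-4 gave day 4 differences between 1.98 and 2.77. Signs held across rows in these values, with exceptions elsewhere for the small differences of Krtap28-13 on day 6 and Krtap12-1 over time, as given above. A further 11 rows name several symbols, 7 of them Krtap symbols alone, and were not counted. The brightest of these, shared by Krtap6-1 and Krtap6-5, was at 12.81, 8.40 and 7.61 log2 units in the high biopsies, against 11.59, 10.62 and 7.93 in the low biopsies.

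The keratins that these proteins bind were compared as a group of the hair shaft. Of 16 listed hair shaft keratins 10 had a row of their own, all of them past the filter, and their median high minus low differences were 2.37, -0.22 and 0.95 log2 units on days 4, 6 and 9. On day 6, 5 of the 10 keratins were higher in the high biopsy, against 3 of the 36 keratin-associated protein genes (49.8% of all genes). Krt31, a cortex keratin, was at 11.75, 8.01 and 8.23 log2 units in the high biopsies, against 8.64, 8.66 and 6.58 in the low biopsies. Krt35, an early hair shaft keratin, was at 9.52, 7.37 and 7.57 log2 units in the high biopsies, against 6.63, 6.96 and 6.01 in the low biopsies, and was higher in the high biopsy on all 3 days. Between days 4 and 6 in the high group the keratins had a median change of -2.21 log2 units, against -3.65 for the keratin-associated protein genes. The keratin changes ran from -3.74 for Krt31, at 11.75 log2 units in the high day 4 biopsy, to -1.24 for Krt36, at 7.80 there. The part of the starting level in these changes was not tested. No keratin of the list passed an adjusted p of 0.05 between groups, and the difference between the 2 lists was not tested.

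The 8 inner root sheath keratins, which belong to the sheath that moulds the growing shaft, had median differences of 2.34, 0.10 and 2.13 log2 units on the 3 days. The 13 listed transcription factors of the hair matrix had smaller ones, at 0.58, -0.07 and 0.17. Hoxc13, a direct activator of hair keratin genes, was at 8.79, 7.35 and 7.40 log2 units in the high biopsies, against 7.52, 7.21 and 6.68 in the low biopsies. It was the highest in the high day 4 biopsy and the lowest in the low day 9 biopsy, as the family was. Of the 13 regulators, 11 were highest in the high day 4 biopsy (24% of all genes), but only 4 were lowest in the low day 9 biopsy (20.9%). Gata3 was lower in the high biopsy on all 3 days, by 0.05, 0.20 and 0.18 log2 units. None of the regulators passed an adjusted p of 0.05.

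Markers of other skin components were set beside the family. On day 4 all 6 muscle and all 5 adipocyte markers past the filter were higher in the high biopsy, with median differences of 0.95 and 0.82 log2 units, and all 6 melanocyte markers were higher, with a median of 0.62. On day 6 these medians were 0.12, -0.22 and 0.22. The basal epidermis and fibroblast lists had medians of 0.30 and -0.08 on day 4 and within 0.10 of 0 on days 6 and 9. Krt5, of the basal epidermis, ranged from 12.89 to 13.12 log2 units over the 6 biopsies. The 6 sebocyte markers had medians of 0.32, -0.41 and -0.05 on days 4, 6 and 9, and all 6 were lower in the high biopsy on day 6. The part of muscle, fat, pigment or sebaceous cell content in the differences on days 4 and 6 was not tested.

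**Figure D5:**
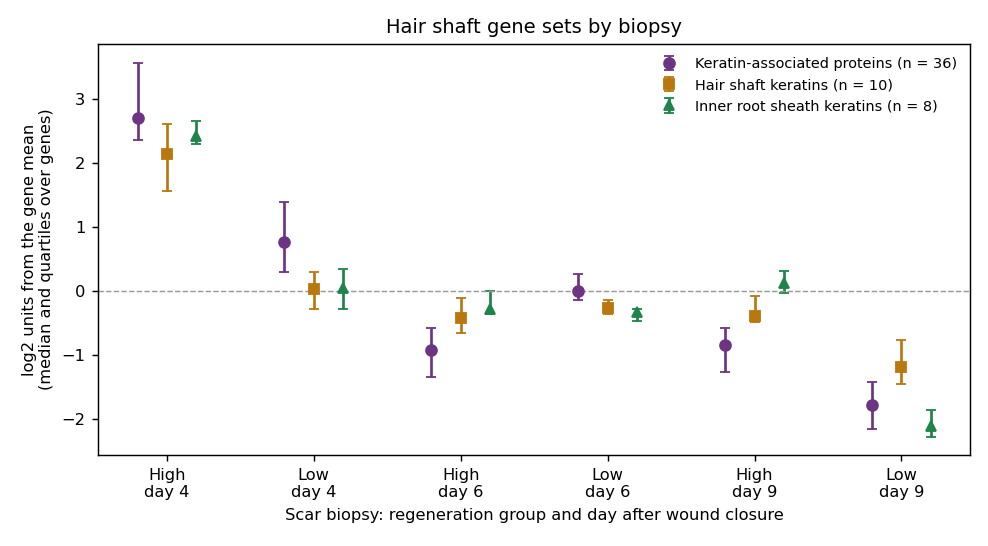
Median and quartiles over genes of the level in log2 units from the gene mean (y axis), by biopsy (x axis), for 36 keratin-associated protein genes, 10 hair shaft keratins and 8 inner root sheath keratins. On day 6 the keratin-associated protein median is -0.92 in the high and 0.00 in the low biopsy, while the hair shaft keratin medians are -0.43 and -0.27.

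Outside the family, the 10 genes past the filter whose levels correlated most with the family's mean profile over the 6 biopsies had Pearson correlations of 0.992 to 0.9985, given as a description. The list included Aadacl4fm1, Tchhl1, AU018091, Gabrp and Gabra3. Tchhl1, a trichohyalin-like gene, was at 10.05, 7.15 and 7.17 log2 units in the high biopsies, against 8.70, 7.81 and 6.29 in the low biopsies. Gabrp, a GABA receptor subunit gene, was at 8.57, 6.03 and 6.08 log2 units in the high biopsies, against 7.24, 6.64 and 5.12 in the low biopsies. The other 5, Neurod2, St6galnac2, Guk1, Qars and Lpcat4, followed the same order with whole ranges of 0.17 to 0.33 log2 units.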

How the data were processed

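RNA from 6 scar biopsies was hybridised to exon arrays, 1 array each. The authors deposited 1 table of log2 values; that the scale is log2 was read from the values. Affymetrix Expression Console and PLIER are named in the submitters' processing notes, with no version or role; background correction, filters and genome build: not given in the sources used here. Arrays give no read depth, so precision is limited by the number of arrays.

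Rows with 1 gene symbol were kept, the brightest row per gene, with no further normalization. The 25% of genes with the lowest mean were left out. Linear models with moderated variances (limma 3.58.1, R 4.3.3) were fitted to 15191 genes with Benjamini-Hochberg adjustment over all of them. The 3 comparisons were high against low with day as a factor (2 residual degrees of freedom), slope per day with group as covariate (3), and the slope difference (2). Fits with a pair or biopsy left out have fewer. The deposited design pairs the biopsies of a day. Deviations of same-day biopsies from their group means correlated at 0.5, 0.112 and 0.56 on days 4, 6 and 9. Those of biopsies of different days ran from -0.491 to 0.141, so the day 6 pair did not stand out from these. Neither slope model has a term for the pairs. Whether p-values reflect more than the spread of single mice per day cannot be seen here.

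The members and gene lists were chosen with earlier results of these data known, so lists are described by counts and medians and not tested. Genes named were the lowest-numbered member of each subfamily, per class the 3 with the largest difference, the 3 with the steepest slope and up to 3 of opposite sign, and those beside the filter; other members, markers and counts at 1 log2 unit were chosen with the values in view. Classes follow subfamily numbers; the planned check against protein composition was not run because no protein table was used here. Of the 37 genes, 35 matched RefSeq by gene ID. Promoters are RefSeq windows of GRCm38.p6, and the shown length was set to 100 bases for display. The fits were run on simulated data with noise independent between biopsies and between genes. In the real data family members and some same-day biopsies were correlated, so that run does not vouch for the p-values here. The alternatives were other filters, quantile normalization, row means, a trended prior, no day block, ranked days, each pair or biopsy left out and, added after seeing the data, rows shared by several Krtap genes.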

Additional observations from a re-analysis of the deposited data

Results flagged for a closer look

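The direction between groups on day 6 was opposite to that on day 4. The median high minus low difference of the 36 keratin-associated protein genes was -0.847 log2 units on day 6, against 2.06 on day 4. By class the day 6 medians were -0.517 for the high sulfur, -0.649 for the ultrahigh sulfur and -1.783 for the high glycine-tyrosine genes, and all of the day 4 class medians were above 0. Each day has 1 pair, so the difference between days was not tested.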

How the results depend on the processing

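The results depended mostly on which biopsies were included. Between high and low biopsies, the count of all genes called was 8, and it was 0 with no filter, 0 after quantile normalization and 0 to 35 when each pair was left out. The family had 0 genes called, and 0 to 6 without 1 pair, the 6 being Krtap4-1, Krtap4-7, Krtap4-13, Krtap7-1, Krtap9-1 and Krtap9-3 without the day 6 pair. With no replicate block, that is without the pairing by day, 0 genes of the family had an unadjusted p under 0.05, against 3 with it, and the count was 0 to 30 without 1 pair. For these settings the share of all genes at that unadjusted p was not counted. The family median ran from -0.03 to 1.45 log2 units. The mean difference turned sign in 14 of 28 named genes when 1 pair was left out (11 without day 4, 3 without day 6 and 1 without day 9, with 1 gene in more than 1 of these). It ran from -0.36 to 1.33 for Krtap1-5, from -0.21 to 1.17 for Krtap2-4, from -0.085 to 1.78 for Krtap3-1 and from -0.10 to 1.35 for Krtap5-1. Further ranges ran from -0.69 to 1.23 for Krtap6-2, from -0.057 to 1.24 for Krtap10-10, from -0.14 to 0.28 for Krtap12-1 and from -0.36 to 1.14 for Krtap14. Others ran from -1.55 to 1.22 for Krtap19-1, from -0.57 to 0.94 for Krtap21-1, from -0.35 to 1.72 for Krtap31-1 and from -1.66 to 1.25 for Krtap19-5. The next ran from -1.50 to 1.37 for Krtap19-2 and from -0.15 to 0.77 for Krtap4-6.

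For the slope per day, 0 genes were called, 2 with ranked days and 0 to 130 without 1 biopsy, of which 0 to 23 were of the family; the highest counts came without the high day 6 biopsy. The median slope stayed negative, from -0.68 to -0.38 for the family, from -0.60 to -0.25 for the high sulfur, from -0.62 to -0.35 for the ultrahigh sulfur and from -1.05 to -0.55 for the high glycine-tyrosine genes. None of the 28 named genes turned sign under the alternatives run for the slope.

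For the slope difference, 0 to 83 genes were called without 1 biopsy, 0 to 23 of them in the family, and 0 to 35 genes of the family had an unadjusted p under 0.05. Here too the share of all genes at that unadjusted p was not counted. The medians ran from -1.33 to 0.48 for the family, from -1.33 to 0.34 for the high sulfur, from -1.15 to 0.51 for the ultrahigh sulfur and from -1.75 to 0.71 for the high glycine-tyrosine genes. All 28 named genes turned sign under at least 1 alternative, so no direction of this comparison is reported for a single gene. Krtap28-13 did so with the mean of its rows, at 0.011 log2 units per day. Without 1 biopsy each, the slope difference ran from -1.43 to 0.77 for Krtap1-5, from -1.36 to 0.36 for Krtap2-4, from -1.76 to 0.56 for Krtap3-1 and from -1.52 to 1.18 for Krtap4-1. Further ranges ran from -1.16 to 0.45 for Krtap5-1, from -1.88 to 0.61 for Krtap6-2, from -1.33 to 1.01 for Krtap7-1 and from -1.47 to 0.68 for Krtap8-1. Others ran from -0.95 to 0.62 for Krtap9-1, from -1.24 to 0.19 for Krtap10-10, from -1.47 to 0.43 for Krtap11-1 and from -0.47 to 0.019 for Krtap12-1. The next ran from -1.57 to 0.27 for Krtap13-1, from -1.31 to 0.46 for Krtap14, from -2.13 to 0.58 for Krtap19-1 and from -0.31 to 0.38 for Krtap20-2. More ran from -1.40 to 0.47 for Krtap21-1, from -1.14 to 0.32 for Krtap24-1, from -1.005 to 0.14 for Krtap26-1 and from -0.84 to 0.35 for Krtap28-13. The values also ran from -2.37 to 0.44 for Krtap31-1, from -1.05 to 0.53 for Krtap4-13, from -0.97 to 0.29 for Krtap5-3 and from -1.14 to 0.64 for Krtap4-7. The last ran from -1.41 to 1.21 for Krtap9-3, from -1.96 to 0.93 for Krtap19-5, from -2.44 to 1.11 for Krtap19-2 and from -0.82 to 0.23 for Krtap4-6. The cause of these turns was not tested. Low signal limits the values of the genes below the filter cut.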
